A study of Mus musculus with 6 samples.

Results

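The forkhead box (FOX) genes encode transcription factors that bind DNA through a winged-helix forkhead domain. Described here are the FOX genes outside the lung lineage set. They are the symbols of the count table made of FOX, a letter and a number, with FOXA1, FOXA2, FOXJ1 and FOXP3 left out by the rule, FOXE3 left out because it had no count, and antisense rows left out. Apart from that case the rule used names, not measured values, and FOXM1 was named in it. It gave 39 genes of the 46937 symbols in the table, and each of the 39 matched a single protein-coding gene of GENCODE M21 on GRCm38.

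The libraries were total RNA of mouse lung squamous cell carcinoma biopsies. In all of them the tumour model carries constitutively active PI3K (PIK3CA H1047R), SOX2 overexpression and deletion of CDKN2A and CDKN2B. The 3 PSC libraries carry wild-type NSD3 and are the controls, and the 3 PSCN libraries add expression of the T1242A form of NSD3, an enzyme that methylates histones. The only comparison of the design is PSCN against PSC, which asks how expression differs with the NSD3 mutant. The promoter or Cre that drives each allele and the age of the mice are not given in the sources used here. Nothing in the labels ties the biopsies to different mice. The p-values therefore measure only the spread between these samples, part of which may be technical.

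FOX proteins are named by subfamily letter, and related members often share tissues. FOXF and FOXC factors act in mesenchyme and vessels, FOXN1 in the differentiation of keratinocytes, FOXM1 in the transcription of mitotic genes, and FOXO factors as effectors that AKT holds in the cytoplasm when PI3K is active. Since FOXO factors are regulated mainly through their location in the cell, their transcript level is not a measure of their activity.

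Total counts ran from 69563622 to 72807077 per library. The PSC library 3 stood apart from its group, with a mean correlation of log2 CPM across genes of 0.941 to PSCN libraries and 0.908 to PSC libraries 1 and 2. CPM here is the count of a gene scaled to a common TMM-adjusted library size. From XIST and DDX3Y, PSC libraries 2 and 3 came from female and the other 4 libraries from male mice, so the PSC libraries came from more than 1 mouse. NSD3 itself stood at 79.7 to 102 CPM across PSC and at 821 to 1932 CPM across PSCN, so its levels follow the labels. PSCN thus differs from PSC in the level of NSD3 transcript as well as in the T1242A form, and these cannot be told apart here. Basal squamous markers, which define the labelled tumour type, were low in PSC library 1, with a summed 710 CPM over 11 genes, against 2308 to 20277 CPM in the other 5 libraries.

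Of the 39 FOX genes, 27 passed the low count filter of edgeR and were tested. None passed an adjusted p of 0.05 in edgeR's quasi-likelihood test, where 0.00472% of all 21201 genes tested did. The smallest adjusted p was 0.137, for FOXD1. NSD3, the altered gene, did not pass in edgeR either, at 13.2-fold higher in PSCN with an adjusted p of 0.137. Before adjustment, 2 FOX genes were higher (9.48% of all genes were) and 3 were lower (12.2% of all genes were) at a p of 0.05, together 18.5% of the 27 against 21.6% of all genes tested. With DESeq2, 1 was higher (FOXD1) and 3 were lower (FOXN4, FOXA3 and FOXP2), where that test called 13.9% of all genes, 5.26% higher and 8.63% lower. The authors' deposited table called the same 4, 1 higher and 3 lower, of 30 FOX genes that have an adjusted p there, with 12.0% of all its genes called, 3.92% higher and 8.10% lower. With limma-voom and quality weights, 3 were higher (FOXD1, FOXK2 and FOXP1) and 2 lower (FOXN4 and FOXA3), where 14.3% of all genes were called, 8.43% higher and 5.84% lower. FOXN4 was below the filter's minimum in every PSCN library, so in the fits run here it was tested only through PSC, where it was high. Without PSC library 3, edgeR called FOXD1 and FOXP1 higher and FOXF1 and FOXP2 lower, with 8.80% of all genes called, 3.39% higher and 5.40% lower. That setting removes the PSC library most like PSCN, and leaving out any other library called 0 FOX genes, higher or lower.

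Of the 27 tested genes, 15 had a positive and 12 a negative log2 fold change of PSCN over PSC, called the log2 ratio in what follows. Their median was 0.05, beside -0.01 over all genes tested, of which 49.1% were positive and 50.9% negative. For 14 of them the difference was under 1.5-fold in either direction, as it was for 59.2% of all genes. The libraries of the groups did not overlap for 6 of the 27, which is 22.2%, against 28.6% of all genes tested (15.2% higher and 13.4% lower in PSCN). These were FOXD1, FOXN1 and FOXK2, higher in PSCN, and FOXN4, FOXA3 and FOXJ3, lower in PSCN. Of these, FOXN4 was tested only through its PSC counts. These shares of FOX genes were close to those of all genes. The single members are described by their roles. The shares of all genes given above also stand beside the counts of the gene lists below.

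**Figure D1:**
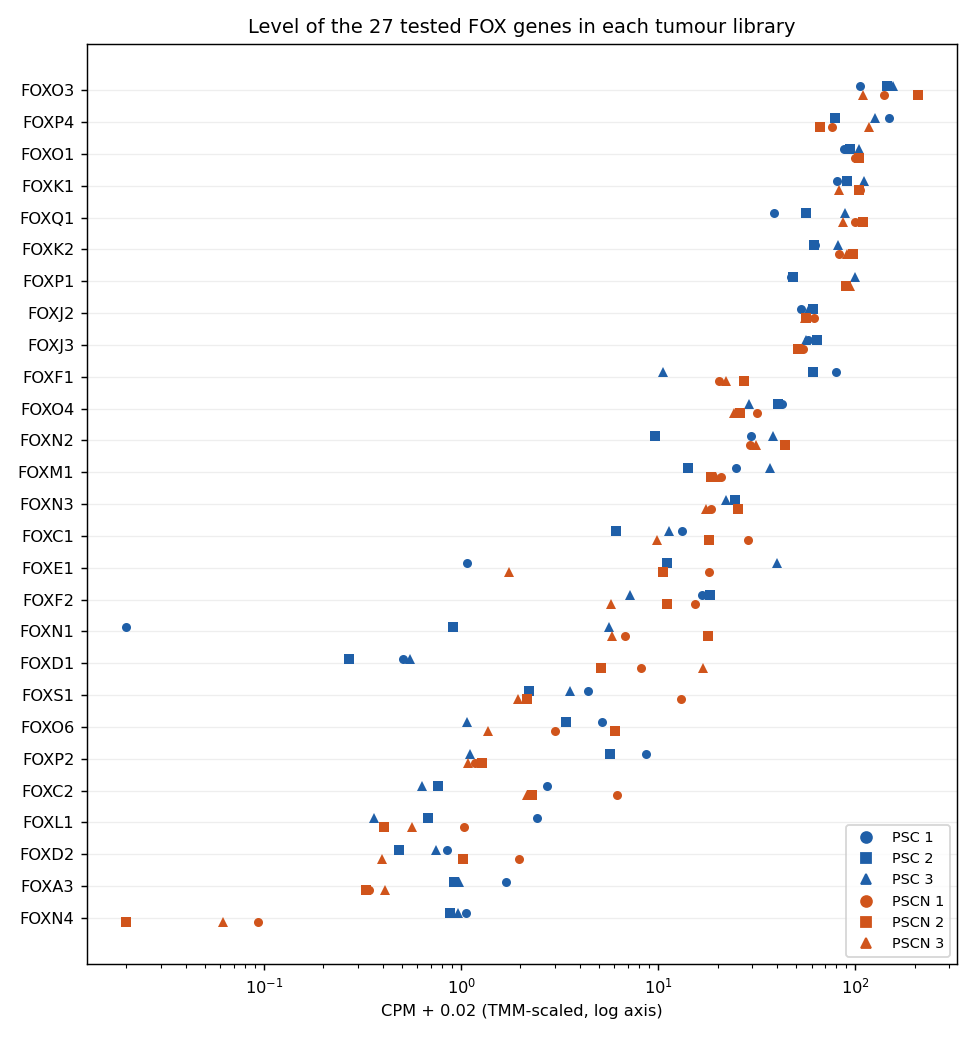
Level of each tested FOX gene in each library. The horizontal axis is CPM plus 0.02 on a log axis, blue marks are PSC and orange marks PSCN libraries, and the mark shape gives the library number. FOXD1 and FOXN4 show the widest separation of the groups, with FOXD1 at 0.251 to 0.531 CPM across PSC and 5.11 to 16.8 CPM across PSCN.

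Levels of different genes were compared as CPM per kilobase of exonic length. On that scale the highest means over the 6 libraries were those of FOXP4, FOXO3, FOXQ1, FOXF1 and FOXK2. FOXP4 had a mean of 23.8 CPM per kb in PSC and 17.6 in PSCN, and FOXQ1 had 12.6 in PSC and 20.3 in PSCN. FOXM1 was 15th in that order, at 4.39 CPM per kb in PSC and 3.42 in PSCN. FOXD1, although it differed most, was 21st, at 0.0835 CPM per kb in PSC and 1.98 in PSCN. FOXN4 was the lowest of the tested genes, at 0.281 CPM per kb in PSC and 0.0113 in PSCN.

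Among the factors of mesenchyme and vessels, FOXD1 differed most. FOXD1 marks stromal progenitors, among them those of the kidney and of lung pericytes. It lies on chromosome 13 from 98354242 to 98359305 on the plus strand. Its level was 0.486, 0.251 and 0.531 CPM across PSC libraries 1 to 3 and 8.15, 5.11 and 16.8 CPM across PSCN libraries 1 to 3. Every PSCN library was far above every PSC library, and PSC library 3 was as low as the rest of its group. The means were 0.423 ± 0.151 CPM and 10 ± 6.05 CPM (SD, n = 3 each), a 23.6-fold difference and a log2 ratio of 4.56 (SE 0.61, adjusted p = 0.137 in edgeR). That ratio ran from 3.94 to 4.84 when each library was left out in turn, and without PSC library 3 it was 4.77 with an adjusted p of 0.0409 in edgeR.

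Stromal marker sums had another order of libraries than FOXD1. The summed level of 12 fibroblast markers, all measured, was 1641 to 4264 CPM across PSC and 43097, 2061 and 1315 CPM across PSCN libraries 1, 2 and 3. FOXD1 was highest in PSCN library 3, where the fibroblast sum was lowest of all 6 libraries. The sum of 10 smooth muscle and pericyte markers was 491 to 1715 CPM across PSC and 450 to 826 CPM across PSCN. Of these 10, 4 had positive and 6 negative log2 ratios. Of the 10, 3 stood lower in every PSCN library than in any PSC library, as did 13.4% of all genes tested. In edgeR none passed (3 lower at an unadjusted p of 0.05), and DESeq2 called 2 lower. Of the fibroblast markers, 7 had positive and 5 negative log2 ratios. Their median was 0.67, and -1.02 without PSCN library 1. None of the 12 passed in edgeR (0 at an unadjusted p of 0.05) or DESeq2. The part of stromal content in the FOXD1 values was not tested.

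Promoter sequence upstream of the RefSeq start is given for FOXD1, FOXN4 and FOXA3, the FOX genes with the smallest p. RefSeq on GRCm38.p6 had such sequence for 24 of the 39 genes. Each run holds the 250 bases before the start, 5′ to 3′ on the gene's strand, at chr13:98353995-98354244 (plus strand) for FOXD1, chr5:114273762-114274011 (minus strand) for FOXN4 and chr7:19023540-19023789 (minus strand) for FOXA3. Capitals mark matches, on either strand, to the letters of 6 short motifs searched. The forkhead motif was spelled GTAAACA. The motif of SOX factors was spelled AACAATG. The CCAAT box was spelled as its name. The GC box was spelled GGGCGG. The E-box was spelled CACGTG. The cell cycle homology region was spelled TTTGAA. No match of one motif overlapped a match of another in these 3 windows.
FOXD1: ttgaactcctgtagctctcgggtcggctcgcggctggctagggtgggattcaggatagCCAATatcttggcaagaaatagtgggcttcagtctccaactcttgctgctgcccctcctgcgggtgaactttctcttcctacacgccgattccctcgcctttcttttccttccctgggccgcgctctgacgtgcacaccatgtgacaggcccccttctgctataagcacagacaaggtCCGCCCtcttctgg
FOXN4: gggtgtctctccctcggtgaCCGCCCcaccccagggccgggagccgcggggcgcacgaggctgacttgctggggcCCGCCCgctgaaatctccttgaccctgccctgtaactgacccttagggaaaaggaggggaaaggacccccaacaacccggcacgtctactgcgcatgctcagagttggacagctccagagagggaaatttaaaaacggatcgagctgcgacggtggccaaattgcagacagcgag
FOXA3: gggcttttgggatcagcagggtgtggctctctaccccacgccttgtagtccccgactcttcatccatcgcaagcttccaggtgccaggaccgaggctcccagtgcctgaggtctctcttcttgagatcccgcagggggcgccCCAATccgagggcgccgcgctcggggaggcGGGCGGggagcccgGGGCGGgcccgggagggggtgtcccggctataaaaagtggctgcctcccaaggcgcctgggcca
The FOXD1 window held a CCAAT box and a GC box, the FOXN4 window 2 GC boxes, and the FOXA3 window a CCAAT box and 2 GC boxes. A GC box was in 76.9% of the 26 windows of FOX genes and in 32.7% of all 32851 windows. The FOX windows were also richer in G and C, with a median of 63.8% against 52.4%, and held a median of 17.5 CpG against 6. The forkhead letters were in none of the 26 windows and in 3.17% of all, and the SOX letters were in none of the 26 and in 3.29% of all. These matches are a description of letters in these windows only.

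FOXF1, which acts in the mesenchyme and endothelium of the lung and responds to hedgehog signals, had the highest level of the mesenchymal FOX genes per kilobase. It stood at 80.1, 60.9 and 10.6 CPM across PSC libraries 1 to 3 and 20.3, 27.3 and 22.1 CPM across PSCN libraries 1 to 3. PSC libraries 1 and 2 were high, and PSC library 3 was the lowest of all 6, so the groups overlapped. The fitted log2 ratio was -1.12 (SE 0.67, adjusted p = 0.36 in edgeR), and without PSC library 3 it was -1.59 with an adjusted p of 0.0403 in edgeR. Without PSC library 1 it was -0.62.

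Endothelial markers had the same highest and lowest library as FOXF1. Their sum over 12 genes, all measured, was 2187, 1246 and 422 CPM across PSC libraries 1 to 3 and 1021, 872 and 604 CPM across PSCN libraries 1 to 3. Of the 12, 11 had negative log2 ratios, with a median of -0.59. None passed in edgeR (0 at an unadjusted p of 0.05) or DESeq2, and 3 were lower in edgeR without PSC library 3. TEK, an endothelial receptor (chosen after its values were seen), stood at 132, 76.1 and 11.5 CPM across PSC libraries 1 to 3 and 21.6 to 35.1 CPM across PSCN. In bulk tissue, fewer cells of a type and less RNA per cell cannot be told apart, and the part of endothelial content in the FOXF1 values was not tested. FENDRR, a noncoding gene that lies on the other strand 1.3 kb from FOXF1 (chosen after its values were seen), stood at 69.5, 51.0 and 4.51 CPM across PSC and 16.0, 21.3 and 11.7 CPM across PSCN libraries 1 to 3. It was thus high and low in the same PSC libraries as FOXF1.

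FOXF2, a relative of FOXF1 in mesenchyme, stood at 16.6, 18.4 and 7.15 CPM across PSC libraries 1 to 3 and 15.4, 11 and 5.71 CPM across PSCN libraries 1 to 3. The groups overlapped, with a log2 ratio of -0.39 (SE 0.50).

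FOXC1 and FOXC2, factors of mesenchyme and of blood and lymph vessels, had positive differences with overlap. FOXC1 stood at 13.2, 6.08 and 11.3 CPM across PSC libraries 1 to 3 and 28.6, 18.0 and 9.81 CPM across PSCN libraries 1 to 3 (log2 ratio 0.89, SE 0.47). FOXC2 stood at 2.70, 0.739 and 0.613 CPM across PSC and 6.18, 2.26 and 2.15 CPM across PSCN (log2 ratio 1.38, SE 0.76). Both were highest in PSCN library 1, the library with the high fibroblast sum. Without that library the log2 ratios were 0.46 and 0.72. The FOXC2 ratio was 2.38 without PSC library 1 and 0.39 with sex as a covariate.

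FOXS1, found in pericytes and neural crest derivatives, depended on the same library. It stood at 4.37, 2.18 and 3.53 CPM across PSC libraries 1 to 3 and at 13.1, 2.15 and 1.93 CPM across PSCN libraries 1 to 3. PSCN libraries 2 and 3 were below every PSC library, and PSCN library 1 was above them. Its log2 ratio was 0.76 (SE 0.83) and turned to -0.71 without PSCN library 1. The collagen gene COL1A1, a fibroblast marker, stood at 19229 CPM in that library and at 278 to 1228 CPM in the other 5.

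FOXD2, a factor of paraxial mesoderm and kidney, was low, at 0.823, 0.462 and 0.722 CPM across PSC and 1.94, 1 and 0.377 CPM across PSCN libraries 1 to 3. This gave a log2 ratio of 0.72 (SE 0.63) and 0.05 without PSCN library 1. FOXL1, a factor of the subepithelial mesenchyme of the gut, stood at 2.40, 0.660 and 0.341 CPM across PSC and 1.01, 0.386 and 0.544 CPM across PSCN libraries 1 to 3. The fitted log2 ratio was -0.81 (SE 0.81) and turned to 0.37 without PSC library 1. Neither gene separated the groups.

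Several of these genes are neighbours on the chromosome. FOXF1, FOXC2 and FOXL1 lie within 46.3 kb on chromosome 8, and FOXQ1, FOXF2 and FOXC1 within 256.3 kb on chromosome 13. Neighbours differed in the sign of their estimates: FOXF1 had -1.12, FOXC2 1.38 and FOXL1 -0.81 as log2 ratios, and FOXQ1 had 0.69, FOXF2 -0.39 and FOXC1 0.89. None of these 6 passed in edgeR.

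**Figure D2:**
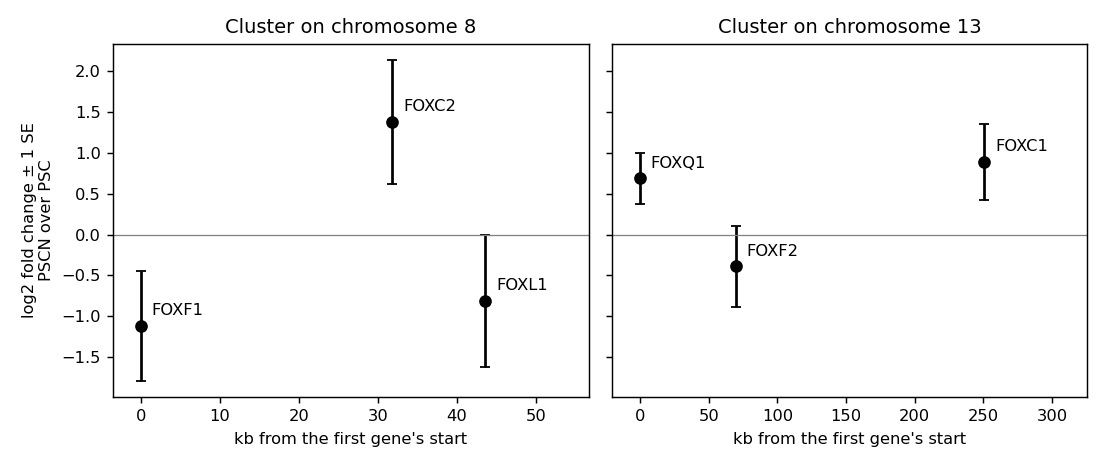
Log2 fold change of PSCN over PSC (vertical axis, point and bar of 1 SE) against the distance in kb from the start of the first gene of each cluster (horizontal axis). In the chromosome 8 cluster FOXC2 lies above 0, at 1.38, between FOXF1 at -1.12 and FOXL1 at -0.81.

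Hedgehog genes, the pathway upstream of FOXF1 and FOXL1 in development, were described from a list of 14, all tested. Of these, 6 had positive and 8 negative log2 ratios, with a median of -0.56. In edgeR none passed (1 lower at an unadjusted p of 0.05) or DESeq2, and limma-voom with quality weights called 1 higher and 1 lower. PTCH1, the hedgehog receptor and a target of the pathway, stood at 113, 98.1 and 55.8 CPM across PSC libraries 1 to 3 and 56.0, 33.3 and 46.9 CPM across PSCN libraries 1 to 3 (log2 ratio -0.97, SE 0.32). It was high in the same PSC libraries 1 and 2 as FOXF1, and PSC library 3 lay beside the PSCN libraries.

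Among factors of epithelium, FOXN1 and FOXQ1 had higher means in PSCN, FOXA3 a lower mean, and FOXE1 varied within the groups. FOXN1, the factor whose loss causes the nude phenotype, acts in keratinocyte differentiation and in thymic epithelium. It stood at 0, 0.884 and 5.63 CPM across PSC libraries 1 to 3 and at 6.74, 17.9 and 5.80 CPM across PSCN libraries 1 to 3. The groups did not overlap, but PSC library 3 at 5.63 CPM was just below PSCN library 3 at 5.80 CPM. The 0 in PSC library 1 is a count of 0, which allows up to 0.0404 CPM, the level of 3 counts. Its log2 ratio was 2.23 (SE 1.65, adjusted p = 0.448 in edgeR), 4.53 without PSC library 3, 1.64 without PSC library 1 and 1.51 without PSCN library 2. Other fits gave 4.38 (limma-voom with quality weights), 4.76 (limma-voom without weights), 4.13 (replicate block) and 12.5 (sex as a covariate), so the size of the FOXN1 difference was poorly determined.

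Markers of squamous differentiation had their lowest and highest sums in the same libraries as FOXN1. Their sum was 56.2, 511 and 2579 CPM across PSC libraries 1 to 3 and 5989, 11064 and 4638 CPM across PSCN libraries 1 to 3, over 14 of 15 listed genes found in the table. Of the 14, 13 had positive log2 ratios, and 11 stood higher in every PSCN library than in any PSC library, as did 15.2% of all genes tested. KRT13, a keratin of stratified mucosa, stood at 7.32, 290 and 1158 CPM across PSC and at 2006 to 5035 CPM across PSCN. None of the 14 passed in edgeR, 5 were higher at an unadjusted p of 0.05, and DESeq2 called 5 higher. The lowest library of both was PSC library 1 and the highest PSCN library 2. The part of squamous content in the FOXN1 values was not tested.

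FOXQ1, a factor of hair and of mucosal epithelium, was the most abundant epithelial member per kilobase. It stood at 38.5, 56.4 and 88.7 CPM across PSC libraries 1 to 3 and 99.2, 109 and 86.7 CPM across PSCN libraries 1 to 3. PSC library 3 lay within the PSCN range, and the other PSC libraries lay below it. This gave a log2 ratio of 0.69 (SE 0.31, adjusted p = 0.26 in edgeR), and 1.07 without PSC library 3 (adjusted p = 0.0533 in edgeR). Basal squamous markers, 11 of 12 found in the table, summed to 710, 2308 and 6076 CPM across PSC and 9580, 20277 and 6818 CPM across PSCN libraries 1 to 3. Of the 11, 9 had positive and 2 negative log2 ratios, with a median of 0.9. None of these markers passed in edgeR (2 higher at an unadjusted p of 0.05), and DESeq2 called 1 higher. Their part in the FOXQ1 values was not tested.

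FOXE1, a factor of thyroid and hair follicle, varied within both groups. It stood at 1.05, 11 and 40.0 CPM across PSC libraries 1 to 3 and 18.1, 10.6 and 1.73 CPM across PSCN libraries 1 to 3. Both groups held low and high libraries. The fitted log2 ratio was -0.78 (SE 1.29) and turned to 0.76 without PSC library 3. Without PSCN library 1 it was -1.49. It was 3.27 with the sex of the mouse as a covariate, where the estimate rests on PSC library 1 as the only male PSC library.

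FOXA3, an endoderm factor linked to mucous cells of the airway, was low in all libraries. It lies on chromosome 7 from 19013284 to 19023538. It stood at 1.67, 0.897 and 0.953 CPM across PSC and 0.321, 0.309 and 0.391 CPM across PSCN libraries 1 to 3, from counts of 68 to 124 and 20 to 28. The groups did not overlap, and PSC library 3 was as high as PSC library 2. The means were 1.17 ± 0.433 and 0.340 ± 0.0441 CPM (SD, n = 3 each), a log2 ratio of -1.78 (SE 0.39, adjusted p = 0.179 in edgeR), and -1.94 to -1.44 when each library was left out in turn. Club cell markers, which mark airway secretory cells and include the mucin MUC5AC, summed to 24520, 12689 and 2068 CPM across PSC libraries 1 to 3 and to 384 to 1193 CPM across PSCN. All 9 had negative log2 ratios, none passed in edgeR and DESeq2 called 9 lower. Their part in the FOXA3 values was not tested.

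FOXI1, the factor that specifies ionocytes, the chloride-transporting cells of the airway, did not pass the filter, with counts of 11, 9 and 7 in PSC libraries 1 to 3 and 9, 3 and 0 across PSCN libraries 1 to 3. Of 11 ionocyte genes, 9 were tested, with 2 positive and 7 negative log2 ratios, from -5.13 to 1.11 and a median of -1.38. None passed in edgeR (4 lower at an unadjusted p of 0.05), and DESeq2 called 4 lower. The sum over the 11 genes was 87.2, 161 and 220 CPM across PSC libraries 1 to 3. It was 155, 65.1 and 78.5 CPM across PSCN libraries 1 to 3, so the groups overlapped for the sum. BSND, a chloride channel subunit of the list, had no count. CFTR, a chloride channel also found in secretory cells, stood at 24.4, 37.5 and 51.5 CPM across PSC libraries 1 to 3 and 2.25, 2.78 and 4.59 CPM across PSCN libraries 1 to 3 (log2 ratio -3.56, SE 0.42). The proton pump subunit ATP6V1B1 stood at 12.5, 11.1 and 2.55 CPM across PSC and at 0.0618 to 0.481 CPM across PSCN. CFTR was highest in PSC library 3, and ATP6V1B1 was lowest in it within PSC.

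FOXN4, which acts in retinal and spinal cord neurons and in the maturation of multiciliated cells, had the largest negative difference of the FOX genes tested. It lies on chromosome 5 from 114254164 to 114273807. Its counts were 77, 65 and 69 in PSC libraries 1 to 3 and 5, 0 and 3 across PSCN libraries 1 to 3. These are 1.04, 0.858 and 0.940 CPM across PSC and 0.0729, 0 and 0.0419 CPM across PSCN, and the 0 allows up to 0.0463 CPM. All PSC libraries were alike, and all PSCN libraries had at most 5 counts. Its log2 ratio was -4.55 (SE 0.85, adjusted p = 0.171 in edgeR), from -5.34 to -4.05 when each library was left out in turn. FOXN4 was the only tested FOX gene below the filter's minimum of 0.140 CPM in every library of a group, so it entered the test through PSC alone.

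Ciliated cell markers were low in PSC library 3, and FOXN4 was not. Their sum over 15 genes, all tested, was 1099, 463 and 67.1 CPM across PSC libraries 1 to 3 and 59.3, 35.9 and 84.4 CPM across PSCN libraries 1 to 3. PSC library 3 thus lay within the PSCN range for the ciliated sum, while its FOXN4 level of 0.940 CPM lay with the other PSC libraries. All 15 had negative log2 ratios, with a median of -3.65. In edgeR none passed (14 lower at an unadjusted p of 0.05), and DESeq2 called 14 lower. For 5 of the 15 (and 13.4% of all genes tested) every PSC library, library 3 included, stood above every PSCN library. These were MCIDAS, GMNC, MYB, RFX3 and PIFO (chosen after their values were seen), the first 4 of which regulate transcription in the making of multiciliated cells. FOXJ1 and RFX2, also transcription factors of the list, were not among these 5. FOXJ1 stood at 250, 119 and 13.4 CPM across PSC libraries 1 to 3 and 13.7, 6.15 and 24.4 CPM across PSCN libraries 1 to 3. MCIDAS stood at 1.26, 1.43 and 0.654 CPM across PSC libraries 1 to 3 and 0.0698 to 0.139 CPM across PSCN. Its PSCN levels were below the filter's minimum of 0.140 CPM, so like FOXN4 it entered the test through PSC alone. The part of ciliated cell content in the FOXN4 values was not tested. FOXA3 and FOXD1 likewise had PSC library 3 beside the other PSC libraries.

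**Figure D3:**
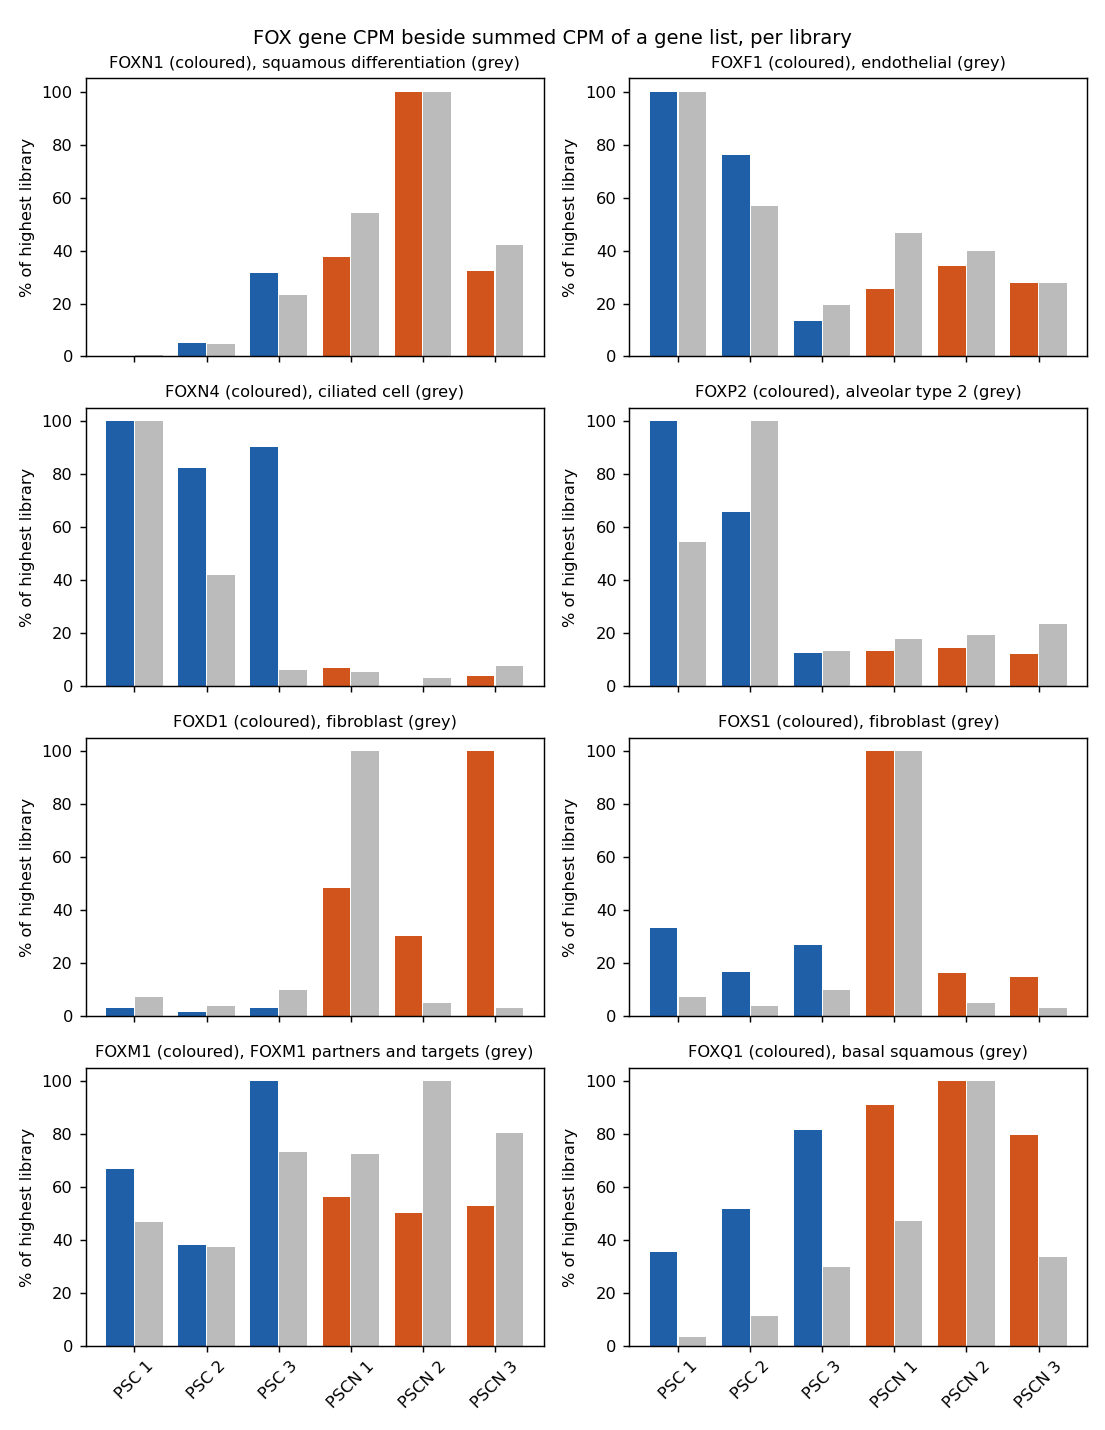
Level of 8 FOX genes (coloured bars, blue PSC and orange PSCN) beside the summed CPM of a gene list (grey bars), each as a percentage of its highest library, for the 6 libraries on the horizontal axis. FOXF1 and the endothelial sum were both lowest in PSC library 3, at 10.6 and 422 CPM, while FOXN4 stood at 0.940 CPM there with the ciliated sum at 67.1 CPM.

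The FOXP factors repress transcription in the developing lung epithelium, and FOXP1 also acts in B cell development. FOXP2 stood at 8.65, 5.70 and 1.09 CPM across PSC libraries 1 to 3 and at 1.15, 1.25 and 1.06 CPM across PSCN libraries 1 to 3. Only PSC libraries 1 and 2 were high, and PSC library 3 lay within the PSCN range. This gave a log2 ratio of -2.15 (SE 0.73, adjusted p = 0.197 in edgeR), and -2.62 without PSC library 3 (adjusted p = 0.0403 in edgeR). Without PSC library 1 it was -1.56 (adjusted p = 0.433 in edgeR). Alveolar type 2 markers, the surfactant-making cells, were high in the same libraries, with a sum over 10 genes of 7622, 14008 and 1876 CPM across PSC and 2515, 2688 and 3280 CPM across PSCN libraries 1 to 3. All 10 had negative log2 ratios. None passed in edgeR (4 lower at an unadjusted p of 0.05), and DESeq2 called 2 lower. Their part in the FOXP2 values was not tested.

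FOXP1 ran the other way. It stood at 47.0, 48.1 and 99.3 CPM across PSC libraries 1 to 3 and at 89.7, 89.9 and 94.3 CPM across PSCN libraries 1 to 3. PSC library 3 was the highest of all 6, and the PSCN libraries were close to each other. The fitted log2 ratio was 0.50 (SE 0.32, adjusted p = 0.385 in edgeR), and 0.95 without PSC library 3 (adjusted p = 0.0403 in edgeR). B cell markers did not follow it, with all 8 lower in every PSCN library than in any PSC library (13.4% of all genes were). Their sum was 70.1 to 242 CPM across PSC and 14.6 to 32.7 CPM across PSCN. FOXP4, the most abundant FOX gene per kilobase, stood at 148, 78.7 and 126 CPM across PSC and 76.2, 66.5 and 118 CPM across PSCN libraries 1 to 3, with overlap (log2 ratio -0.44, SE 0.32).

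The FOXO factors, which switch on cell cycle arrest, stress and catabolic genes when PI3K signalling is low, had log2 ratios within 0.46 of 0 in either direction. FOXO1 stood at 87.5, 94.1 and 104 CPM across PSC libraries 1 to 3 and 99.4, 105 and 105 CPM across PSCN libraries 1 to 3 (log2 ratio 0.12, SE 0.13). FOXO3 stood at 106, 145 and 156 CPM across PSC and 140, 208 and 110 CPM across PSCN (log2 ratio 0.17, SE 0.28). Both groups overlapped for FOXO1 and FOXO3, and the FOXO3 value turned to -0.17 without PSCN library 2. FOXO4 stood at 42.6, 40.6 and 29.0 CPM across PSC and 31.6, 26.0 and 24.1 CPM across PSCN libraries 1 to 3 (log2 ratio -0.46, SE 0.21, adjusted p = 0.256 in edgeR). For FOXO4 PSC library 3 again lay within the PSCN range. FOXO6, a member best known from the brain, stood at 5.14, 3.38 and 1.05 CPM across PSC and 2.96, 6.04 and 1.35 CPM across PSCN libraries 1 to 3, with a log2 ratio of 0.11 (SE 0.75) whose sign turned without PSC library 3 (-0.29) and without PSCN library 2 (-0.63).

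Of 30 FOXO target genes, 29 were tested, with 10 positive and 19 negative log2 ratios and a median of -0.21. None passed in edgeR, where 2 were higher and 6 lower at an unadjusted p of 0.05, and DESeq2 called 1 higher and 5 lower. The 4 with the smallest p split in direction. CDKN1A, a cell cycle inhibitor and also a p53 target, stood at 133, 139 and 140 CPM across PSC libraries 1 to 3 and 215, 365 and 330 CPM across PSCN libraries 1 to 3 (log2 ratio 1.14, SE 0.23). RBL2, a pocket protein of quiescent cells, stood at 68.2, 66.3 and 56.3 CPM across PSC and 43.4, 34.6 and 35.9 CPM across PSCN (log2 ratio -0.74, SE 0.16). SESN3, a stress-induced inhibitor of mTORC1 signalling, had -1.05 (SE 0.26) and the transcription factor KLF15 had -2.14 (SE 0.55). CDKN1A, RBL2 and SESN3 separated the groups with PSC library 3 on the PSC side, which their choice by p favours. Over the 29 genes, 3 stood higher and 7 lower in every PSCN library than in any PSC library. Of all genes tested, 15.2% stood higher in that way and 13.4% lower. KLF15 also separated the groups, but its PSC library 3 was nearer to PSCN than to the other PSC libraries. It stood at 20.1, 18.0 and 4.81 CPM across PSC libraries 1 to 3 and 2.83 to 3.51 CPM across PSCN.

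Of 15 PI3K and AKT genes, which set FOXO location, 8 had positive and 7 negative log2 ratios, with a median of 0.12. In edgeR none passed (1 higher and 3 lower at an unadjusted p of 0.05), and DESeq2 called 2 lower. INPP4B, a phosphatase that removes a PI3K product, stood at 6.61, 8.08 and 12.6 CPM across PSC libraries 1 to 3 and 2.51, 2.98 and 3.98 CPM across PSCN libraries 1 to 3 (log2 ratio -1.53, SE 0.35). PIK3R1, the regulatory subunit of PI3K, had -0.58 (SE 0.18). SGK1, a kinase that also phosphorylates FOXO3, had 0.53 (SE 0.18). INPP4B, PIK3R1 and SGK1 separated the groups, which their choice by p favours. Over the 15 genes, 2 stood higher and 3 lower in every PSCN library than in any PSC library. Of all genes tested, 15.2% stood higher in that way and 13.4% lower.

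FOXM1 is the factor of the mitotic programme. It stood at 24.7, 14.1 and 37.0 CPM across PSC libraries 1 to 3 and at 20.8, 18.6 and 19.6 CPM across PSCN libraries 1 to 3. The PSCN libraries were nearly equal and lay inside the PSC range. The means were 25.3 ± 11.5 CPM and 19.7 ± 1.11 CPM (SD, n = 3 each), a log2 ratio of -0.36 (SE 0.35, adjusted p = 0.561 in edgeR). Without PSC library 3, the highest, it was 0.04, and without PSC library 2, the lowest, it was -0.65.

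The list of FOXM1 partners and targets, 32 genes and all tested, had 30 positive and 2 negative log2 ratios, with a median of 0.85. None passed in edgeR or in DESeq2. At an unadjusted p of 0.05 in edgeR, 7 were higher (9.48% of all genes were) and 1 lower (12.2% of all genes were). By contrast, limma-voom with quality weights called 21 higher, where 8.43% of all genes were. Without PSC library 3, the PSC library most like PSCN, edgeR called 12 higher, where 3.39% of all genes were. Their summed level was 770, 610 and 1201 CPM across PSC libraries 1 to 3 and 1187, 1641 and 1318 CPM across PSCN libraries 1 to 3. Within PSC, FOXM1 and the sum had the same order, with PSC library 2 lowest and PSC library 3 highest. In PSCN library 2 the sum was the highest of all libraries, at 1641 CPM, with FOXM1 at 18.6 CPM. PSC library 3 had almost the same sum as PSCN library 1, with FOXM1 at 37.0 and 20.8 CPM.

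MYBL2, which acts with FOXM1 on mitotic promoters, stood at 9.39, 7.25 and 16.5 CPM across PSC libraries 1 to 3 and 23.4, 25.8 and 18.1 CPM across PSCN libraries 1 to 3 (log2 ratio 1.02, SE 0.35). The mitotic kinase AURKB stood at 11.7, 8.26 and 16.9 CPM across PSC and 21.1, 25.9 and 20.7 CPM across PSCN (log2 ratio 0.87, SE 0.30). CKS1B, a subunit of cyclin-dependent kinase complexes, had 0.85 (SE 0.31) and the cyclin CCNF had 0.96 (SE 0.36). All 4 separated the groups, with PSC library 3 the nearest PSC library to PSCN. They have the smallest p of the list, which favours such a separation. Over all 32 genes, 11 stood higher and 1 lower in every PSCN library than in any PSC library. Of all genes tested, 15.2% stood higher in that way and 13.4% lower. Without PSC library 3 the list's median was 1.25, and it was 0.59 without PSC library 2.

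The promoters of that list had RefSeq windows for 27 of its 32 genes, 29 windows in all. The CCAAT letters were in 82.8% of them and in 33.8% of all windows. The cell cycle homology letters TTTGAA were in 37.9% of them and in 16.0% of all windows. The forkhead letters GTAAACA were in none of the 29.

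FOXJ2 and FOXJ3 are expressed in many tissues. FOXJ2 stood at 53.3, 61.0 and 58.3 CPM across PSC libraries 1 to 3 and 61.5, 56.1 and 55.3 CPM across PSCN libraries 1 to 3, with means of 57.5 ± 3.91 and 57.6 ± 3.40 CPM (SD, n = 3 each). FOXJ3 stood at 57.9, 63.6 and 56.2 CPM across PSC and 54.2, 51.5 and 51.8 CPM across PSCN. All PSCN libraries were below all PSC libraries for FOXJ3, by a log2 ratio of only -0.17 (SE 0.12, adjusted p = 0.409 in edgeR).

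FOXK1 and FOXK2, repressors linked to autophagy and glycolysis genes, differed in their patterns. FOXK1 stood at 81.2, 90.4 and 111 CPM across PSC libraries 1 to 3 and 106, 105 and 82.8 CPM across PSCN libraries 1 to 3, with overlap (log2 ratio 0.05, SE 0.18). FOXK2 stood at 62.3, 61.9 and 81.3 CPM across PSC and 83.2, 97.0 and 90.7 CPM across PSCN. The FOXK2 groups did not overlap, with PSC library 3 just below PSCN library 1. Its log2 ratio was 0.40 (SE 0.16, adjusted p = 0.227 in edgeR), and 0.30 to 0.55 when each library was left out in turn.

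FOXN2 and FOXN3, the latter a repressor linked to cell cycle checkpoints, overlapped between groups. FOXN2 stood at 29.6, 9.61 and 38.2 CPM across PSC and 29.3, 43.8 and 31.2 CPM across PSCN libraries 1 to 3, with PSC library 2 alone low. This gave a log2 ratio of 0.43 (SE 0.50), and 0.04 without PSC library 2. FOXN3 stood at 24.2, 24.5 and 22.1 CPM across PSC and 18.5, 25.4 and 17.5 CPM across PSCN (log2 ratio -0.20, SE 0.19).

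**Figure D4:**
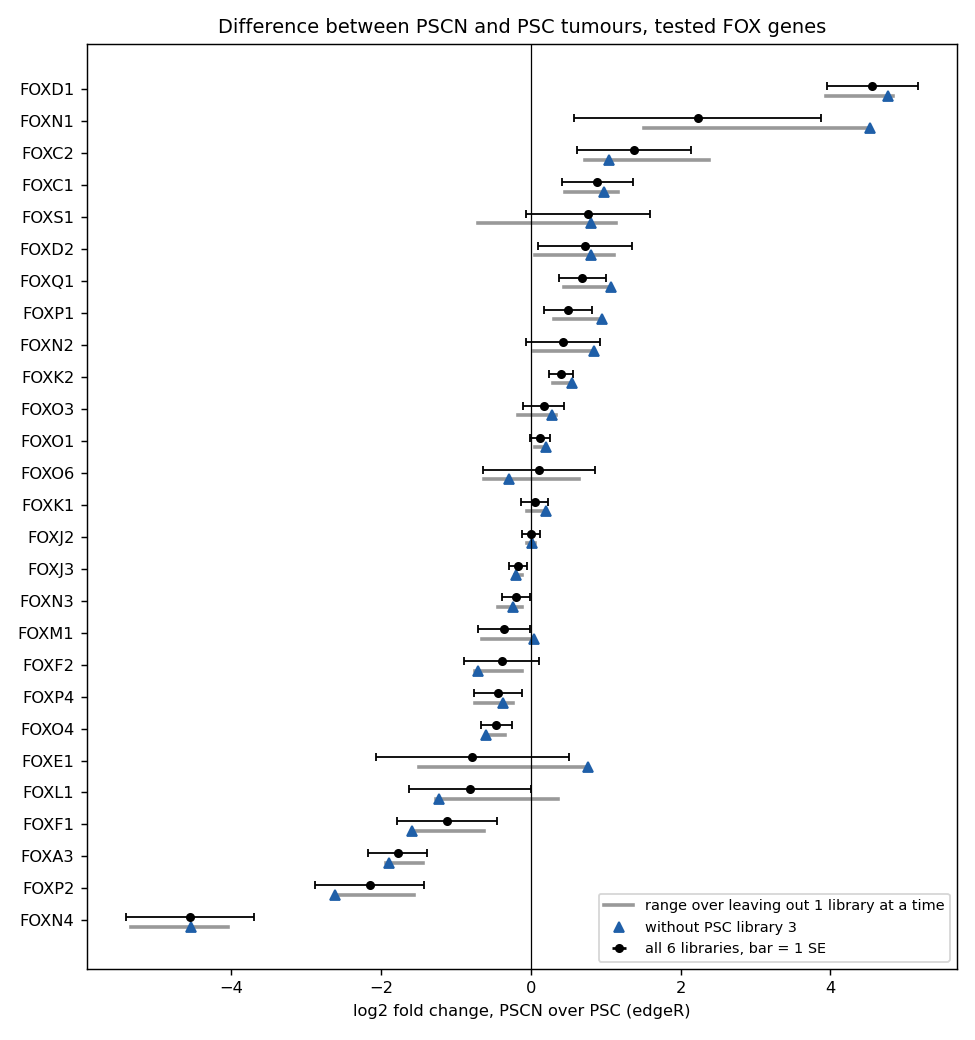
Log2 fold change of PSCN over PSC for the 27 tested FOX genes (black points, bars of 1 SE), the range when each library is left out in turn (grey lines) and the value without PSC library 3 (blue triangles). FOXD1 at 4.56 and FOXN4 at -4.55 lie farthest from 0, and the value of FOXN1 moves from 2.23 to 4.53 without PSC library 3.

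The other 12 FOX genes did not pass the filter and had at most 29 counts in any library. FOXI2 and FOXI3 had no count in any library, which allows up to 0.0396 to 0.0463 CPM per library at 3 counts. The others included FOXB1, FOXB2, FOXD3, FOXD4, FOXH1, FOXI1, FOXL2, FOXR1 and FOXR2, among them FOXL2 of the ovary and FOXD3 of the neural crest and stem cells. FOXD3 had 27 counts across PSC library 1 and 0 in the other 5 libraries. FOXH1, a partner of SMAD proteins, had 0, 4 and 11 counts across PSC libraries 1 to 3 and 6, 3 and 29 counts across PSCN libraries 1 to 3. Differences for these genes were not detectable at this depth.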

How the data were processed

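Total RNA of 6 tumour biopsies was sequenced, and the 3 PSC and 3 PSCN libraries were grouped by their titles. Count columns C and N were read as PSC and PSCN, with the number as the replicate, which no label states. The authors deposited estimated counts per gene symbol as whole numbers. Per the submitters' processing notes, Trimmomatic, HISAT2, StringTie and DESeq2 were used with GRCm38, and versions and the strand used in counting are not given there. The authors' deposited table holds a mean normalized signal, log2 fold changes with standard errors, a test score and p-values. Only its adjusted p-values and the direction of its log2 fold changes are used here.

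Counts were tested with edgeR 4.0.16 in R 4.3.3: filterByExpr (minimum count 10, 21201 genes left), TMM factors, the quasi-likelihood F test with 4 residual and 2.03 prior degrees of freedom, and Benjamini-Hochberg adjustment over all genes tested at 0.05. SE is the log2 ratio over the root of its F value. An exact permutation test of 3 against 3 cannot go below a p of 0.1, so none was used. Total counts per library limit the precision, and reads are not independent molecules, so floors of 3 counts cover counting error only. Alternatives were RLE and upper quartile factors, DESeq2 1.42.0, limma-voom (limma 3.58.1) with and without quality weights, other filters, each library left out, a replicate block and sex as a covariate. Fits were tested on simulated data. Exonic length is the union of GENCODE M21 exons.

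The members and gene lists were chosen with earlier results of these data known. All tested FOX genes are named with their levels, and from other lists at most 4 genes with the smallest p under 0.05. For the marker lists described, sums are given, and for some of them genes are named. FENDRR, TEK, COL1A1, KRT13, BSND and the ciliated genes named were chosen after their values were seen. Some genes of these lists are not reported here by name.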

Additional observations from a re-analysis of the deposited data

How the results depend on the processing

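Over all genes, edgeR called 1 higher and 0 lower. DESeq2 called 1115 and 1830, limma-voom with quality weights 1788 and 1238, limma-voom without weights 0 higher, the filter of 1 CPM in 3 libraries 3 higher, the replicate block 0 higher and sex as a covariate 0 higher. Leaving out each library gave 0 to 751 higher and 0 to 1195 lower, the highest without PSC library 3. FOX genes called were 0 higher and 0 lower, 1 and 3 with DESeq2, 3 and 2 with limma-voom with quality weights, and 0 to 2 in each direction when each library was left out. The replicate block called 0 FOX genes. Correlations of same-numbered libraries' deviations from the group means were 0.186, -0.053 and 0.016. Those of differently numbered libraries ran from -0.178 to 0.187. These values cannot show whether same-numbered samples share more than a number.

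Of the 27 tested FOX genes, 19 kept their sign under the alternatives run and 8 did not. The log2 fold change of FOXE1 turned to 0.76 without PSC library 3 and 3.27 with sex as a covariate. FOXJ2 turned to -0.07 (upper quartile), -0.05 (limma-voom with quality weights), -0.03 (no filter and the 1 CPM filter), and -0.05, -0.04 and -0.03 without PSC library 1, PSCN library 1 and PSCN library 2. FOXK1 turned to -0.01 (upper quartile) and to -0.05 without PSC library 1 or PSCN library 2. FOXL1 was 0.37 without PSC library 1, and FOXM1 was 0.19 with limma-voom with quality weights and 0.04 without PSC library 3. FOXO3 was -0.17 without PSCN library 2, and FOXS1 was -0.71 without PSCN library 1. FOXO6 was -0.43 with limma-voom with quality weights, -0.29 and -0.63 without PSC library 3 and PSCN library 2, and -0.58 with sex as a covariate. Over each library left out, values ran from -1.49 to 0.76 for FOXE1, -0.05 to 0.05 for FOXJ2, -0.05 to 0.2 for FOXK1, -1.27 to 0.37 for FOXL1, -0.65 to 0.04 for FOXM1, -0.17 to 0.34 for FOXO3, -0.63 to 0.64 for FOXO6 and -0.71 to 1.14 for FOXS1. Without a change of sign, values moved by over 1.5-fold with sex as a covariate for FOXC2 (0.39), FOXF1 (-1.79), FOXL1 (-1.89), FOXN1 (12.5), FOXP2 (-2.9) and FOXQ1 (1.35), and with limma-voom with quality weights for FOXN2 (1.31) and FOXN1 (4.38). With sex as a covariate the estimates rest on PSC library 1, the only male PSC library. The sex of the mouse and other traits of that library cannot be told apart there. The cause of the moves with limma-voom was not tested. Depth limits the 12 FOX genes that did not pass the filter.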
